A study of Mus musculus with 32 samples.

Results

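Spinal cord RNA of mice carrying the CHMP2Bintron5 transgene was compared with that of non-transgenic mice at 6 months of age. The comparison rests on 9 of the 32 libraries of the series: 4 from mice whose genotype is labelled CHMP2Bintron5 with 12 copies, and 5 from controls without a transgene. Members were taken by genotype and age label alone. Both groups shared a mixed strain (FVB/N, C57BL/6 and DBA/2), and no treatment is recorded. The sources used here do not give the promoter that drives the transgene, the species of its cDNA, the number of founder lines or the sex of the animals. The labels number the samples of a group without stating that each came from its own animal, so p-values measure the spread between these samples, which may be technical. The other 23 libraries came from mice of 1.5 months and of 10 to 12 months and entered the fit through a shared estimate of the spread.

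CHMP2B is a subunit of ESCRT-III, a set of small proteins that polymerise on endosomal membranes and pinch off the vesicles that deliver receptors to the lysosome. The intron5 form arises from a splice site mutation found in a Danish family with frontotemporal dementia: intron sequence is retained, and the protein loses the C-terminal end through which the ATPase Vps4 removes the polymer. Endosomes and autophagosomes then fail to mature. CHMP2B variants have also been found in amyotrophic lateral sclerosis, in which the motor neurons of the cord die.

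The 9 libraries held between 35391875 and 72036241 reads assigned to genes, and 20015 genes passed the filter on low counts. Levels are given in CPM, counts scaled to the normalised size of each library, in replicate order, and compared between groups only within a gene. Cord markers were present throughout: Hoxa7 lay between 50.8 and 82.4 CPM and Chat, the acetylcholine-synthesising enzyme of motor neurons, between 17.5 and 25.7 CPM, while the forebrain genes Emx1 and Otx1 did not exceed 0.0582 CPM and Neurod6, also listed as one, lay between 2.4 and 4.36 CPM. Some libraries stood apart. Transgenic replicates 2 and 3 carried transcripts of sensory ganglia. Transgenic replicate 4 had 4.81 CPM of Xist against 860 to 1170 CPM in the other 8 libraries, with the Y-linked Ddx3y at 0 CPM there and at most 0.0579 CPM elsewhere. Control replicate 5 was high in microglial genes, and the muscle actin Acta1 reached 63.0 and 61.6 CPM in controls 4 and 5 and 32 CPM in transgenic replicate 1, against 2.24 to 10.3 CPM elsewhere. Fold changes also followed base composition. Their median was -0.18 (log2) in the tenth of genes with the lowest GC content and 0.24 in the tenth with the highest, so results are given with GC and length offsets where these end a call.

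Chmp2b itself was measured first. The control libraries held 45.1, 41, 51.6, 54.3 and 78.8 CPM, and the transgenic libraries 66.3, 73, 66 and 57.6 CPM. Control 5 was above every transgenic library, so the groups overlapped. The log2 fold change of 0.28 ± 0.15 (SE; adjusted p = 0.22) did not pass the threshold of 0.05 in edgeR's quasi-likelihood test with Benjamini-Hochberg adjustment, which is used for every adjusted p below. Without control 5 the value was 0.45 (adjusted p = 0.0374), and with GC and length offsets it was 0.39 (adjusted p = 0.00538). Reads of a transgene from another species would align to the mouse gene only in part, so these counts are no measure of transgene dose.

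The genotype was marked far more sharply by Thy1, a neuronal surface glycoprotein whose regulatory sequences are widely used to drive transgenes in neurons (ENSMUSG00000032011, GRCm38 chromosome 9, 44043384 to 44048579, plus strand). Its level was 714, 740, 704, 658 and 1124 CPM in the controls and 1534, 1504, 1469 and 1536 CPM in the transgenic libraries. The 4 transgenic libraries lay within a narrow band, and the nearest control, replicate 5, stood well apart from the other 4 controls yet below that band. This was a 1.92-fold rise, on the log2 scale 0.94 ± 0.12 (SE; adjusted p = 2.59e-05), which was called in each of the 9 fits leaving out 1 library. Chrna2, the nicotinic acetylcholine receptor subunit that marks Renshaw cells, which receive motor axon collaterals, fell the furthest of the genes that met the rule for naming (ENSMUSG00000022041, GRCm38 chromosome 14, 66135039 to 66152948, plus strand). The controls held 3.36, 2.35, 2.78, 3.2 and 1.9 CPM and the transgenic libraries 0.702, 0.52, 0.619 and 0.778 CPM, so that all 4 lay below the lowest control. This was a 4.1-fold fall, with a log2 fold change of -2.04 ± 0.19 (SE; adjusted p = 1.18e-07). Of the 15 tested genes listed as markers of Renshaw cells and ventral interneurons, Chrna2 was the only one called, against 5.68% of all tested genes called lower and 5.68% called higher, and the median of the 15 was -0.07 beside 0.02 over all tested genes. Within 5 Mb of Chrna2, 14 of 102 tested genes were called in either direction (13.7%), and within 5 Mb of Thy1 18 of 101 (17.8%), of which 3 were ganglion-linked, beside 11.4% over all genes.

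With all libraries and no offsets, other ESCRT genes were called no more often than genes at large. Of 31 tested members of the machinery, Ist1, an ESCRT-III-like regulator of Vps4, was called higher and Usp8, the deubiquitinase that spares cargo from sorting, was called lower. That was 3.23% in each direction, beside 5.68% of all genes. The remaining 29 were not called, and the list ran from -0.37 (Chmp4c) to 0.49 (Ptpn23) on the log2 fold change scale, with a median of 0.00. With GC and length offsets 5 members were higher and 3 lower, where 8.79% of all genes were called higher and 8.08% lower. For Ist1 the controls held 116, 116, 112, 119 and 123 CPM and the transgenic libraries 136, 137, 141 and 161 CPM, without overlap (log2 fold change 0.29 ± 0.06 SE, adjusted p = 0.00329). Usp8 lay between 109 and 131 CPM in controls, with a median of 117 CPM, and was at 102, 104, 104 and 83.4 CPM in the transgenic libraries (log2 fold change -0.28 ± 0.09 SE, adjusted p = 0.0398). Transgenic replicate 4 was the lowest library for Usp8 by a wide margin, and the call was lost without it and without transgenic replicates 2 or 3 or controls 3, 4 or 5.

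Sensory neurons of the dorsal root ganglia sit outside the cord and send their axons into it, and pieces of ganglion can stay attached at dissection. Genes whose lower value in transgenic replicates 2 and 3 was at least 1.5 times the higher value in replicates 1 and 4 were set apart as ganglion-linked, without use of the controls. They numbered 373 of the 20015 tested. The rule is a ratio alone, so the set also took in genes near 0 CPM, such as Gm14131. It also took in genes with higher levels in some controls, such as Dcn (225 and 242 CPM in replicates 2 and 3, up to 323 CPM in controls). Membership does not show that the RNA of a gene came from ganglia. Avil, the actin regulator that marks sensory neurons, was at 0.752, 1.29, 0.709, 0.713 and 0.686 CPM in controls and 0.83, 59.9, 146 and 0.966 CPM in the transgenic libraries. Pirt, a regulator of sensory channels, was at 1.39, 1.75, 2.02, 1.85 and 1.98 CPM and 1.98, 75.6, 163 and 1.8 CPM in the same order. In replicates 1 and 4 both genes were at or near the control level, and in replicates 2 and 3 they were higher by far. Replicate 3 held a median of 1.94 times the level of replicate 2 over the 116 such genes that reached 5 CPM.

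**Figure D1:**
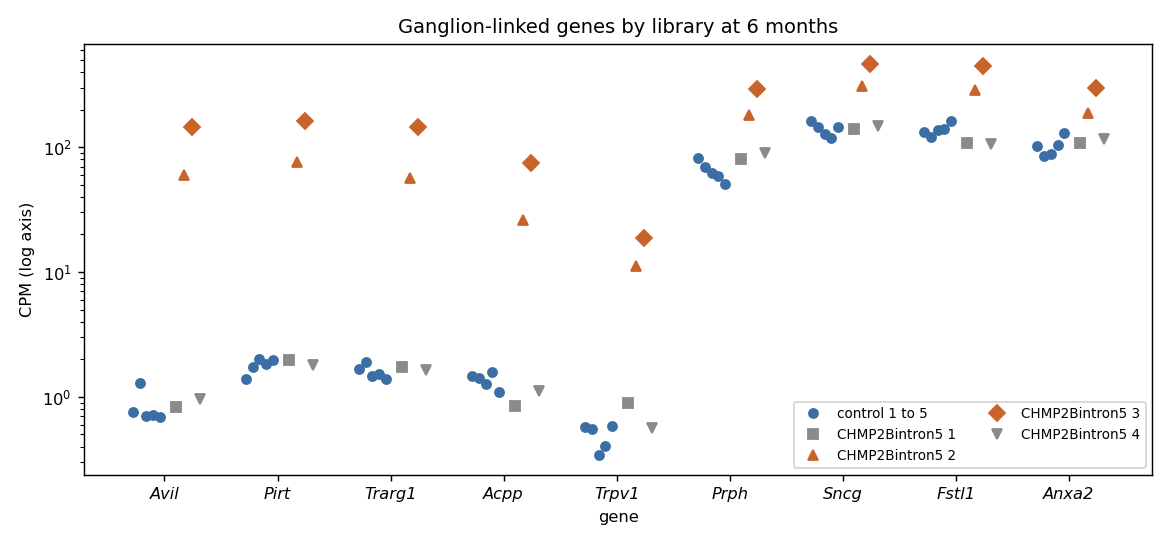
Level in CPM (log axis) of genes set apart as ganglion-linked, with 1 point per library, controls and transgenic libraries side by side. Controls share 1 symbol, and each transgenic replicate has its own. Transgenic replicates 2 and 3 lie above replicates 1 and 4, as the rule for the set required, far above for Avil and Pirt and less so for Sncg and Anxa2. Replicates 1 and 4 sit among or close to the 5 controls.

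The set also held genes that cord neurons express. Prph, the intermediate filament of peripheral and motor axons, was at 81.7, 69.9, 62.6, 58.4 and 51 CPM in controls and 81.1, 180, 291 and 89.5 CPM in transgenic libraries, and Sncg, gamma-synuclein, at 163, 146, 127, 118 and 144 CPM and 139, 311, 468 and 149 CPM. For both genes transgenic replicates 2 and 3 stood far above the other 7 libraries. Of the 11 tested ganglion markers all were called higher, and 10 of them were ganglion-linked. Among the 373 ganglion-linked genes, 109 were called higher, 2 lower and 262 neither. When replicates 2 and 3 were left out, 1 of the 109 was still called higher. High levels in those same libraries define the set, so the loss of these calls was largely fixed in advance. Slc17a7, a vesicular glutamate transporter listed here with dorsal horn genes, belonged to the set, with 0.34, 17.3, 30.3 and 0.0134 CPM in the transgenic libraries and at most 0.355 CPM in controls. These genes are excluded from the single genes and the totals that follow unless named as such. Counts, medians and summed levels of gene lists include them. So do the shares over all tested genes and the counts of the interaction tests. The markers of Schwann cells and nerve roots did not rise with them: their summed level was 15564 to 16260 CPM in transgenic and 18050 to 22574 CPM in control libraries.

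Apart from the ganglion-linked genes, 1028 genes were higher and 1135 lower in transgenic cord. The 2 groups did not overlap for 695 of the former and 872 of the latter. With ganglion-linked genes included, genes called without overlap made up 3.54% and 4.36% of all tested genes. Those shares restate the counts and give no background rate of overlap. Changes of at least 2-fold were few, with 91 higher and 92 lower genes. With replicates 2 and 3 left out, 388 of the 1028 and 385 of the 1135 were still called, and the sign was kept by 1024 and by all 1135. The test then had 2 transgenic libraries and called 2.21% and 2.16% of genes. Those libraries and the controls had also entered the first calls, so the kept signs were largely fixed in advance. With GC and length offsets, which called 8.79% of all genes higher and 8.08% lower, 884 and 975 were called in the same direction. Over all genes, including ganglion-linked ones, 1137 were called in each direction, and single libraries moved these counts: 530 higher (2.62%) and 409 lower (2.02%) without transgenic replicate 4, 629 and 657 without transgenic replicate 3, 636 and 669 without control 3, 695 and 723 without control 4, and 687 (3.44%) and 619 (3.1%) without control 5. Genes called in every fit that left out 1 of the 9 libraries numbered 277 higher and 354 lower.

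Kcna1 and Kcna2 encode the Kv1 channels that flank the node of Ranvier and hold back repeated firing. Kcna1 was at 618, 533, 624, 631 and 596 CPM in controls and 360, 374, 374 and 314 CPM in transgenic libraries (log2 fold change -0.76 ± 0.10 SE, adjusted p = 3.09e-05). For Kcna2 the controls held 673, 638, 714, 689 and 689 CPM and the transgenic libraries 430, 437, 456 and 388 CPM (log2 fold change -0.67 ± 0.09 SE, adjusted p = 1.21e-05). All 4 transgenic libraries were below all 5 controls for both. Of 31 tested potassium channel genes, 4 were called lower, among them these and Kcnj10, the inward rectifier through which astrocytes and oligodendrocytes take up potassium (log2 fold change -0.54 ± 0.10 SE). That was 12.9%, beside 5.68% of all genes. Kcnt1, a sodium-activated channel, was called higher (log2 fold change 0.46 ± 0.14 SE), but not without transgenic replicate 3 or 4 or control 3, 4 or 5. Of the 31, 18 were negative and 13 positive, with a median of -0.05, and 4 were called lower in every fit that left out 1 library.

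Sodium channel genes were fewer, and several were lower. Scn4b is the beta-4 subunit, known for the resurgent current of fast-spiking cells. Controls held 604, 613, 626, 574 and 551 CPM of it and transgenic libraries 287, 341, 358 and 285 CPM. The gap between the groups exceeded the range within either of them, with a log2 fold change of -0.90 ± 0.10 (SE; adjusted p = 1.61e-06). Scn8a, the main channel of the mature node and axon initial segment, was at 426, 421, 418, 412 and 383 CPM in controls and 327, 296, 322 and 324 CPM in transgenic libraries (log2 fold change -0.38 ± 0.05 SE, adjusted p = 1.21e-05). Transgenic replicate 2 was the lowest, and the groups did not overlap. With Scn1a and Nalcn, 4 of 9 tested sodium channel genes were called lower (44.4%) and 1, Scn3b, higher (11.1%). Over all tested genes the share was 5.68% in each direction. The number called lower was 2 without transgenic replicate 3, transgenic replicate 4 or control 5, and Scn3b was not called without transgenic replicate 1, 2 or 3 or control 1, 3 or 4.

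Calcium handling genes were called in both directions. Atp2b1 encodes PMCA1, a plasma membrane pump that clears calcium after activity. It was at 152, 140, 180, 176 and 148 CPM in controls and 75.7, 76.2, 76.9 and 63.9 CPM in transgenic libraries, a 2.18-fold fall (log2 fold change -1.12 ± 0.13 SE, adjusted p = 2.2e-06). Its relative Atp2b2 also fell, from 399, 403, 415, 377 and 328 CPM to 301, 297, 295 and 289 CPM (log2 fold change -0.38 ± 0.07 SE, adjusted p = 0.000875). Neither gene had a transgenic library within the control range. Atp2b3 and Atp2a2, the endoplasmic reticulum pump, were also called lower, as were the auxiliary channel subunit genes Cacna2d3 (log2 fold change -0.52 ± 0.07 SE) and Cacng2 (log2 fold change -0.43 ± 0.07 SE). Genes of pore-forming subunits were among the 4 called higher, which were Cacna1b, Cacna1d, Cacna1h and the beta subunit gene Cacnb3. For Cacna1d, the L-type channel Cav1.3, controls held 34.9, 39.5, 38, 35.7 and 36.1 CPM and transgenic libraries 47.5, 41, 45.5 and 48.7 CPM (log2 fold change 0.31 ± 0.06 SE, adjusted p = 0.00234). In all, 6 of 27 tested genes were lower (22.2%) and 4 higher (14.8%), beside 5.68% of all genes in each direction. The median was -0.05. Without replicates 2 and 3 the counts were 5 lower and 1 higher, where 2.16% and 2.21% of all genes were called.

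**Figure D2:**
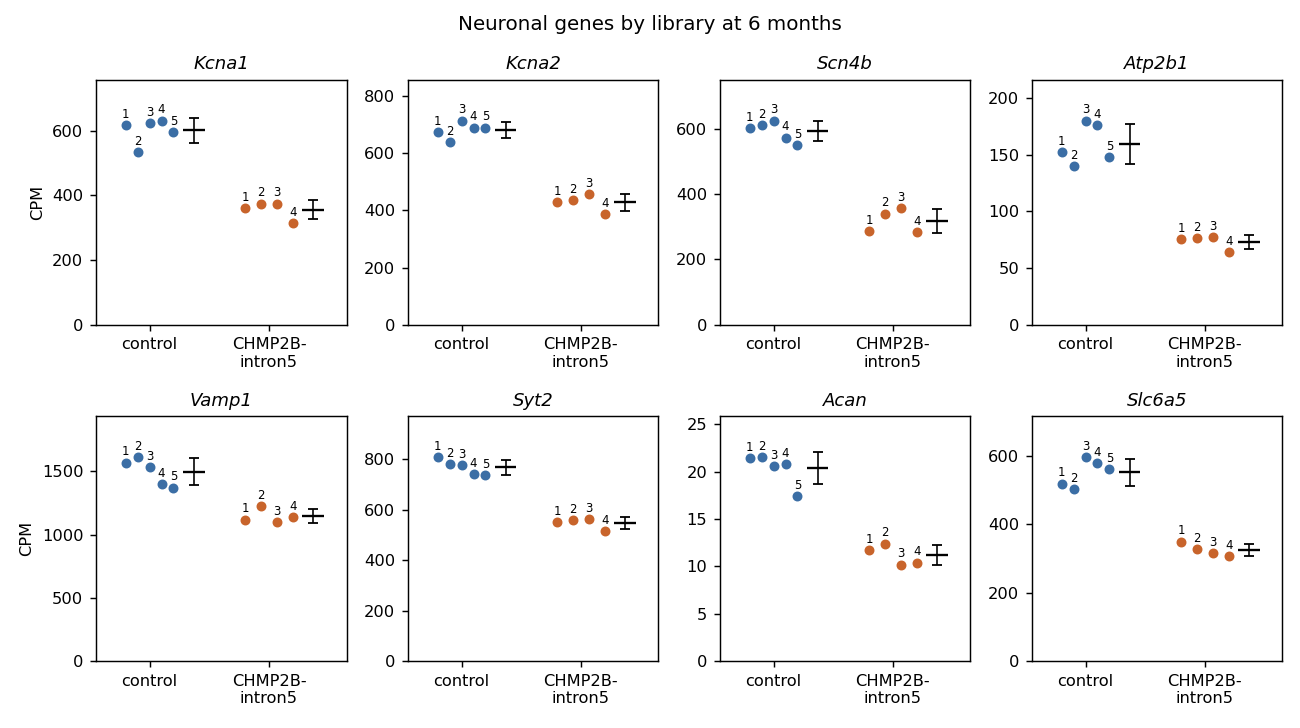
Level in CPM of 8 genes of channels, pumps, synaptic vesicles, matrix and glycine uptake that were lower in transgenic cord, 1 point per library labelled by replicate number, with the mean and SD of each group beside the points. For each of the 8 genes all 4 transgenic libraries lie below all 5 controls.

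The synaptic vesicle machinery held the longest set of lower genes among the neuronal lists. Of 32 tested members, 12 were called lower (37.5%) and 3 higher (9.38%), beside 5.68% of all genes in each direction, and the median was -0.11. Synaptobrevins are the vesicle proteins that drive fusion, and the 2 main forms moved in opposite directions. Vamp1, the form of motor axons and fast cord neurons, was at 1567, 1609, 1529, 1395 and 1369 CPM in controls and 1118, 1223, 1097 and 1136 CPM in transgenic libraries (log2 fold change -0.39 ± 0.07 SE, adjusted p = 0.000384). Vamp2, the general neuronal form, was at 374, 395, 394, 383 and 375 CPM in controls and 515, 479, 491 and 549 CPM in transgenic libraries (log2 fold change 0.40 ± 0.05 SE, adjusted p = 1.21e-05). Neither gene showed overlap between the groups. With GC and length offsets the adjusted p of Vamp1 was 0.081, so its call did not hold there.

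Syt2, the calcium sensor for fast release at inhibitory and neuromuscular synapses, moved with Vamp1. Controls held 807, 780, 775, 741 and 736 CPM and transgenic libraries 550, 560, 564 and 515 CPM (log2 fold change -0.49 ± 0.08 SE, adjusted p = 0.00011), and every transgenic library was below every control. Unc13c, a vesicle priming factor, fell from 143, 149, 181, 187 and 176 CPM to 113, 98.3, 89.6 and 75.7 CPM (log2 fold change -0.83 ± 0.17 SE, adjusted p = 0.00185). Snap25, the fusion protein of the plasma membrane, was at 2969, 2897, 3258, 3004 and 3192 CPM in controls and 2230, 2429, 2179 and 2075 CPM in transgenic libraries (log2 fold change -0.46 ± 0.10 SE, adjusted p = 0.00253), again without overlap. Other lower members were Syn3, Syt11, Sv2b, Sv2c, Rims1, Rph3a and Napb, and the other higher ones Syt5 and Stx1a. Without transgenic replicates 2 and 3 the counts were 9 lower and 1 higher, and without transgenic replicate 4 the number called lower was 7 (2.02% of all genes were then called lower). The number called higher was 1 without transgenic replicate 3 or 4 or control 3, 4 or 5.

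The estrogen-related receptors Esrrg and Esrrb, transcription factors of gamma motor neurons and other cells of high energy demand, were lower too. Esrrg was at 64.2, 60.6, 80.4, 70 and 77.4 CPM in controls and 41.4, 44.3, 42.2 and 31.9 CPM in transgenic libraries (log2 fold change -0.82 ± 0.17 SE, adjusted p = 0.00293), without overlap. The textbook element of these receptors reads TCAAGGTCA. Within the 250 bases before the start of genes, it or its reverse complement was found before 127 of 32851 annotated starts (0.387%) and before 1 of the 23 vesicle genes that had a start in the table, Syt2. Syt2 had 2 starts there, and the window shown lies at chr1:134646362-134646611 on the plus strand of GRCm38.p6 (RefSeq), with the match, here as the reverse complement starting 167 bases before the start, in capitals. A match of letters is a description and not a site of binding.
Syt2: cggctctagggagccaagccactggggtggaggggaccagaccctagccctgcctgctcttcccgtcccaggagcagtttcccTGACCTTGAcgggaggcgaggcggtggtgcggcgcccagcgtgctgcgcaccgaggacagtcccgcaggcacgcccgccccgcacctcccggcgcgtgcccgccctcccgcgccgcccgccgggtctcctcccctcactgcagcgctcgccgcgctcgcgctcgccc

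Transport motors and the axonal skeleton were lower in part. The 3 genes of conventional kinesin heavy chains, which carry cargo from the cell body along axons, all fell. Kif5a, mutated in hereditary spastic paraplegia and amyotrophic lateral sclerosis, was at 1362, 1346, 1375, 1339 and 1306 CPM in controls and 953, 1063, 1061 and 837 CPM in transgenic libraries (log2 fold change -0.46 ± 0.08 SE, adjusted p = 0.000333). Kif5b was at 423, 373, 488, 494 and 544 CPM and 293, 328, 287 and 205 CPM (log2 fold change -0.74 ± 0.13 SE, adjusted p = 0.000738), and Kif5c at 741, 678, 796, 847 and 881 CPM and 563, 579, 543 and 467 CPM (log2 fold change -0.55 ± 0.09 SE, adjusted p = 0.000375). Transgenic replicate 4 was the lowest library for each of the 3, and none of the groups overlapped. Of 27 tested transport genes 6 were lower (22.2%, beside 5.68% of all genes) and none higher, with a median of -0.07. Without replicates 2 and 3 the number called lower was also 6, where 2.16% of all genes were called lower. Among 23 neurofilament and microtubule genes 6 were lower (26.1%) and 2 higher (8.7%). Ina, alpha-internexin, was at 338, 343, 337, 307 and 273 CPM in controls and 248, 214, 233 and 244 CPM in transgenic libraries (log2 fold change -0.45 ± 0.07 SE, adjusted p = 6.54e-05). Nefl, the neurofilament light chain, was at 1801, 1584, 1812, 1646 and 1669 CPM and 1272, 1561, 1450 and 1069 CPM (log2 fold change -0.35 ± 0.09 SE, adjusted p = 0.0128), but was not called without transgenic replicate 4, and the number of lower genes in the list was then 1. It was 3 without transgenic replicate 1 or control 3. Prph, which is ganglion-linked, and Gap43 were the 2 called higher, and 1 was called without transgenic replicate 1 or 3 or control 4 or 5.

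Perineuronal nets are coats of proteoglycan and link protein around fast-firing neurons, and several genes of their parts were lower. Acan, the core proteoglycan aggrecan, was at 21.4, 21.5, 20.6, 20.8 and 17.4 CPM in controls and 11.7, 12.4, 10.2 and 10.4 CPM in transgenic libraries (log2 fold change -0.86 ± 0.11 SE, adjusted p = 9.9e-06). Hapln1, a link protein, fell 2.18-fold, from 13.4, 14.1, 18.7, 15.8 and 17.2 CPM to 6.85, 9.0, 8.47 and 4.89 CPM (log2 fold change -1.12 ± 0.19 SE, adjusted p = 0.000255). Hapln4, another link protein, was at 291, 282, 219, 240 and 209 CPM and 180, 165, 168 and 203 CPM (log2 fold change -0.47 ± 0.09 SE, adjusted p = 0.00115). None of the 3 had overlapping groups. With Ncan and Adamts4, 5 of 15 tested matrix genes were lower (33.3%, beside 5.68% of all genes) and none higher, and the median was -0.34. Without replicates 2 and 3 the count was 2, where 2.16% of all genes were called lower.

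Some genes of inhibitory transmission were lower. Slc6a5, the transporter that loads glycinergic terminals, was at 518, 502, 595, 578 and 560 CPM in controls and 349, 327, 316 and 306 CPM in transgenic libraries (log2 fold change -0.76 ± 0.12 SE, adjusted p = 8.64e-05), with a clear gap between the groups. Pvalb, a calcium buffer of fast interneurons and proprioceptive sensory neurons that skeletal muscle also expresses, was at 134, 146, 124, 164 and 125 CPM and 93.5, 95, 98.5 and 112 CPM (log2 fold change -0.48 ± 0.14 SE, adjusted p = 0.0253), and its call was lost without control 4 or without transgenic replicate 1, 2 or 3. With Nos1, 3 of 14 tested glycine and GABA neuron genes were called lower (21.4%, beside 5.68% of all genes). The number was 1 without transgenic replicate 2, transgenic replicate 3 or control 4. The list's median was -0.01. Glra1, the glycine receptor subunit mutated in startle disease, was at 77.3, 80.9, 121, 96.9 and 139 CPM in controls and 57.2, 50.1, 45.4 and 28.3 CPM in transgenic libraries (log2 fold change -1.19 ± 0.30 SE, adjusted p = 0.0118). Glrb, its beta subunit, was at 272, 238, 332, 291 and 319 CPM and 202, 221, 183 and 154 CPM (log2 fold change -0.61 ± 0.15 SE, adjusted p = 0.00923). Transgenic replicate 4 was the lowest library for both genes, and neither was called without it. All 18 tested genes of the GABA and glycine receptor list had negative fold changes, with a median of -0.34. Of these, 5 were called (27.8%): the 2 glycine receptor genes, Gabra3, Gabra5 and Gabrb2. That count was 0 without transgenic replicate 4, 3 without transgenic replicate 3 or control 3, 4 or 5, and 1 without replicates 2 and 3. Of 23 glutamate receptor genes 3 were lower, among them the fast AMPA receptor subunit Gria4 (log2 fold change -0.42 ± 0.10 SE), and 1, the ganglion-linked Grik1, higher; 6 were lower without control 2.

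Motor neuron markers were called in both directions, 21.1% higher and 15.8% lower, beside 5.68% of all genes in each direction. The 4 called higher of 19 tested (Isl1, Prph, Calca and Ahnak2) were all ganglion-linked. The 3 called lower were Esrrg, Esrrb and Spp1, osteopontin, which marks alpha motor neurons and activated microglia. Spp1 was at 204, 143, 193, 231 and 233 CPM in controls and 96.8, 103, 130 and 109 CPM in transgenic libraries (log2 fold change -0.87 ± 0.17 SE, adjusted p = 0.00137), without overlap. Chat, listed above, was not called. In bulk tissue, fewer cells of a type and less RNA per cell cannot be told apart, here or in any list below.

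Some neuronal genes were higher. Tac1, the substance P precursor of dorsal horn neurons and of nociceptors, was at 35.5, 45.1, 49.7, 42.4 and 46.5 CPM in controls and 62.3, 81.2, 74.8 and 58.8 CPM in transgenic libraries (log2 fold change 0.66 ± 0.11 SE, adjusted p = 0.000391). The ganglion-bearing replicates 2 and 3 were the highest, and replicates 1 and 4 were also above every control. Of 20 tested excitatory dorsal horn genes 5 were higher and none lower, among them also Slc17a7, which is ganglion-linked, Prrxl1 and Trh, and the median was 0.23. Without replicates 2 and 3 the count was 2.

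Of 24 genes of the response to axon injury 7 were called higher (29.2%, beside 5.68% of all genes), none lower and 17 neither. There were 16 positive and 8 negative, with a median of 0.30. Ngfr, the low affinity neurotrophin receptor, was ganglion-linked. Sox11, a transcription factor of regrowing axons, was at 7.47, 8.84, 9.03, 8.23 and 7.03 CPM in controls and 13.3, 10.6, 10.7 and 11.9 CPM in transgenic libraries (log2 fold change 0.52 ± 0.10 SE, adjusted p = 0.00113). Ecel1, an endopeptidase that injured motor neurons raise, was at 56.9, 55.8, 53.6, 45.4 and 47.4 CPM and 79.1, 84.4, 73.8 and 86.9 CPM (log2 fold change 0.65 ± 0.16 SE, adjusted p = 0.0106). Hspb1, a small heat shock protein that protects injured axons, was at 21.6, 16.9, 14.9, 13 and 16.7 CPM and 23, 43.3, 42.9 and 34.7 CPM (log2 fold change 1.12 ± 0.25 SE, adjusted p = 0.00406). Transgenic replicate 1 was closest to the controls for Hspb1, and no group overlapped for the 3 genes. Atf3, Gap43 and Csf1 made up the rest. The count was 4 without transgenic replicate 1 and 3 without replicates 2 and 3, and the part of ganglion RNA in the values of those libraries was not tested.

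Among genes outside the ganglion-linked set that met the rule for naming, given below, the largest rises were in genes of several kinds. C4b, complement component 4, led them. It was at 62.2, 60.4, 73.1, 62.9 and 71.3 CPM in controls and 162, 202, 142 and 214 CPM in transgenic libraries, a 2.73-fold rise (log2 fold change 1.45 ± 0.15 SE, adjusted p = 8.91e-07). Its near copy C4a was at 4.11, 4.2, 4.17, 3.29 and 3.05 CPM and 6.79, 9.3, 7.87 and 10.5 CPM, and reads shared between the 2 genes make the division between them uncertain. Apoc1, an apolipoprotein, was at 6.42, 4.64, 6.27, 5.45 and 4.95 CPM and 16.1, 14.1, 8.45 and 20.7 CPM (log2 fold change 1.42 ± 0.24 SE, adjusted p = 0.000341), with replicate 3 nearest the controls. Lgals3, galectin-3 of activated microglia, was at 4.51, 4.73, 5.04, 5.34 and 7.14 CPM and 14.7, 12.7, 9.97 and 10.9 CPM (log2 fold change 1.17 ± 0.22 SE, adjusted p = 0.00105). All of these had every transgenic library above every control, which the rule for naming required.

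Peptide genes of neurons were among the largest rises as well. Uts2, urotensin II, which cord motor neurons express, was at 33.5, 15.6, 16.9, 20.4 and 25.8 CPM in controls and 42.2, 50.6, 40.9 and 78 CPM in transgenic libraries (log2 fold change 1.24 ± 0.32 SE, adjusted p = 0.0134). Transgenic replicate 4 was far above the other 3, and the call was lost without it. Cartpt, the precursor of CART peptides, was at 7.09, 8.09, 8.17, 6.66 and 8.03 CPM and 17.8, 16.7, 13.5 and 17.1 CPM (log2 fold change 1.10 ± 0.26 SE, adjusted p = 0.00732). The remaining genes that met the naming rule (called with and without replicates 2 and 3, at least 1 CPM on average, no overlap, among the 14 largest) were Gabrr2, which encodes a GABA receptor rho subunit outside the receptor list above (1.44), Card14 (1.35), Crip3 (1.26), Vill (1.17), Sspo (1.15), the zinc transporter gene Slc39a2 (1.14), the oviductal glycoprotein gene Ovgp1 (1.10) and the tubulin glycylase gene Ttll3 (1.07), all as log2 fold changes.

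**Figure D3:**
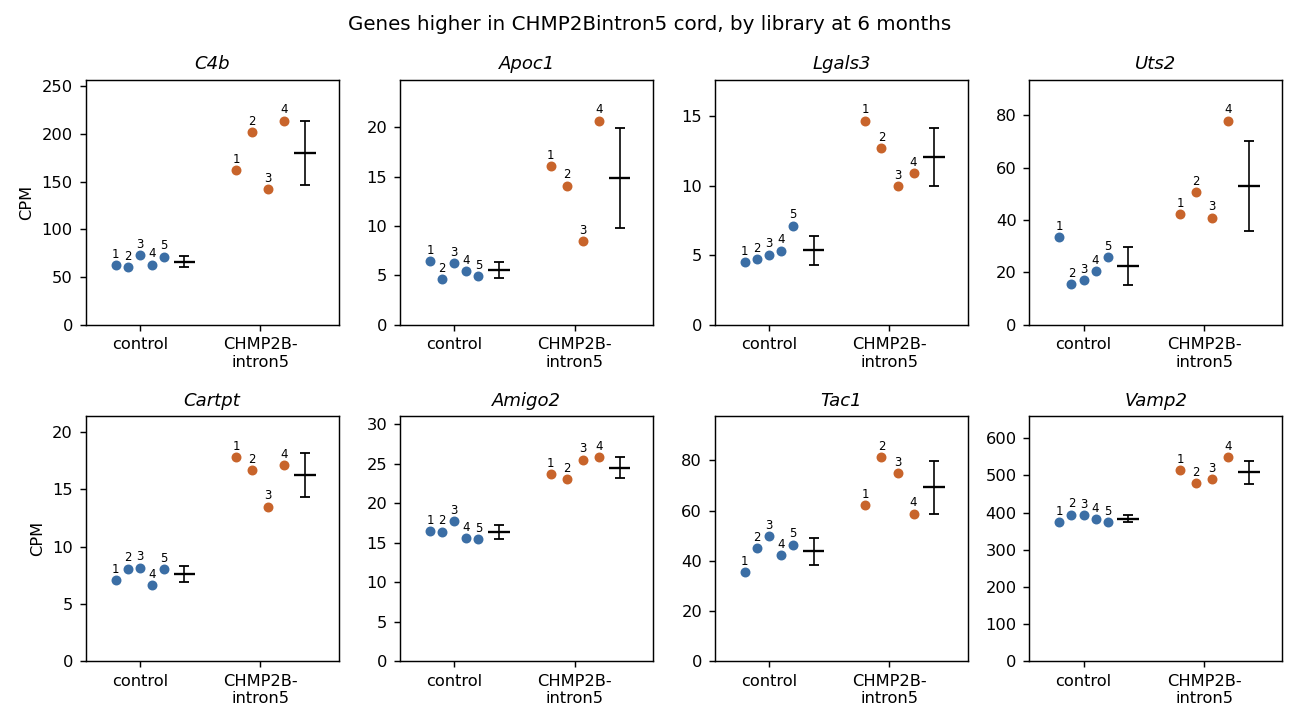
Level in CPM of 8 genes that were higher in transgenic cord, 1 point per library labelled by replicate number, with the mean and SD of each group beside the points. All 4 transgenic libraries lie above all 5 controls for each gene, and replicate 4 stands apart for Uts2. For C4b, Apoc1, Lgals3, Uts2 and Cartpt the rule for naming required that order.

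On the lower side, 2 genes known from striated muscle were among the largest falls by the same rule. Smyd1, a muscle histone methyltransferase, was at 10.3, 8.91, 16, 11.2 and 9.35 CPM in controls and 5.04, 1.56, 3.78 and 1.61 CPM in transgenic libraries (log2 fold change -1.90 ± 0.26 SE, adjusted p = 3.09e-05). Fbxo40, a muscle ubiquitin ligase subunit, was at 6.74, 6.11, 7.4, 7.65 and 6.15 CPM and 2.66, 2.68, 2.92 and 2.17 CPM (log2 fold change -1.39 ± 0.19 SE, adjusted p = 3.09e-05). Smyd1 was highest in control 3, which had the lowest Acta1 of the 5 controls, and Fbxo40 was highest in control 4, which had the highest. The summed level of the muscle list was 152 to 673 CPM in controls and 117 to 282 CPM in transgenic libraries. That list includes Pvalb, described above as also an interneuron gene, which made up most of the sum where the sum was lowest. The part of muscle RNA in these falls was not tested. Hsd11b1, which regenerates active glucocorticoid, was at 22.6, 29.2, 26.1, 39.8 and 24.8 CPM and 15.3, 10.2, 13.8 and 12.8 CPM (log2 fold change -1.13 ± 0.14 SE, adjusted p = 8.9e-06), and Asah2, neutral ceramidase, at 84, 79.6, 98.4, 91.6 and 115 CPM and 50, 53.3, 47.6 and 37.4 CPM (log2 fold change -0.99 ± 0.18 SE, adjusted p = 0.000571). None of the 4 genes had overlapping groups, which the rule for naming required. The others, as log2 fold changes, were Aqp6 (-1.32), Fbxo47 (-1.29), Samd5 (-1.20), Slfn5 (-1.04), Pcdhgb4 (-1.08), whose exons are shared within the protocadherin cluster, and the mitochondrial tRNA genes mt-Tm (-1.50) and mt-Tl1 (-1.06). The call of mt-Tl1 was lost without transgenic replicate 4 or control 5.

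**Figure D4:**
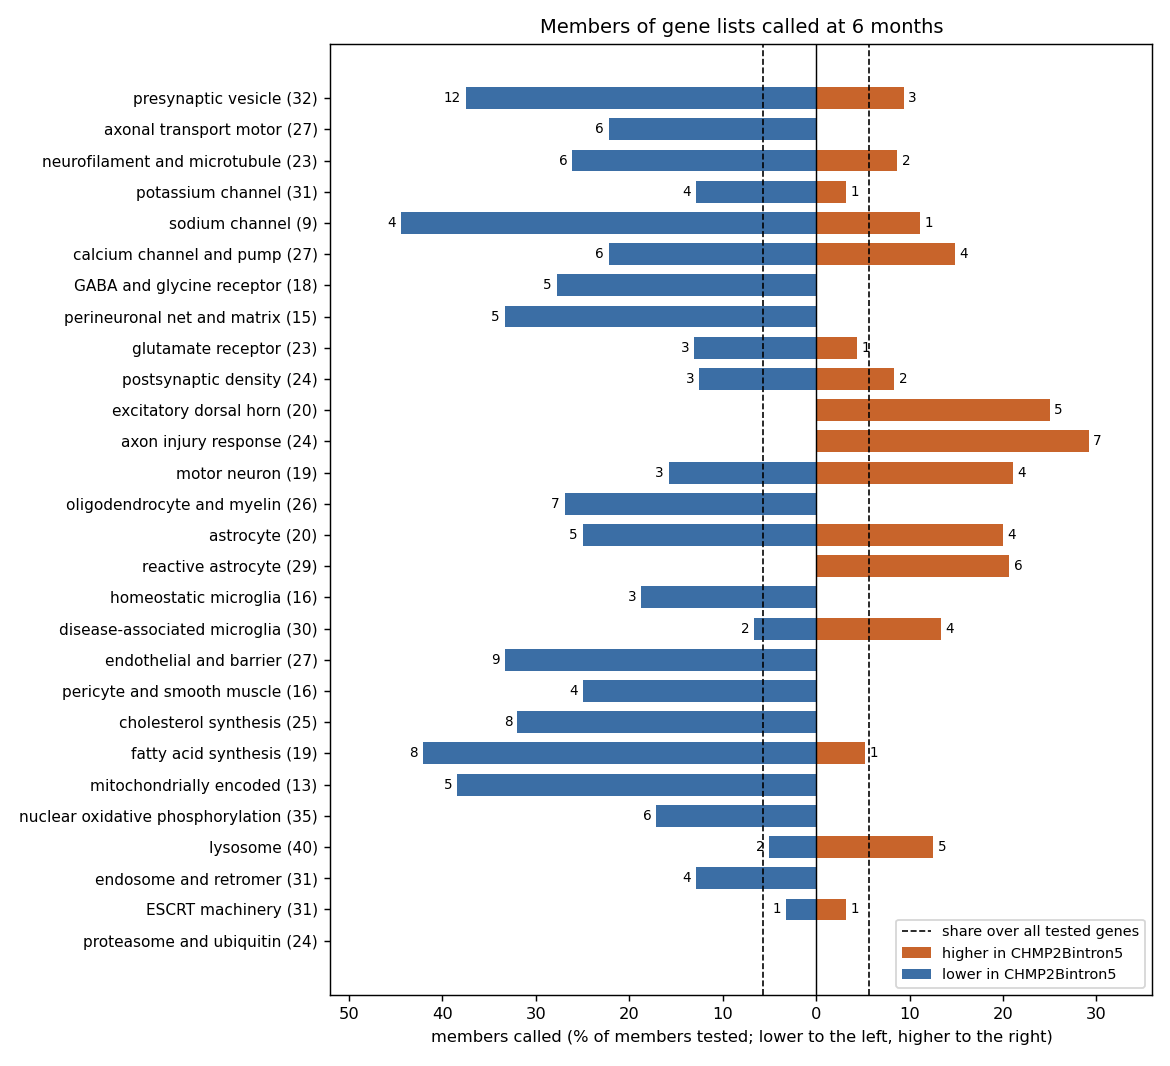
Percentage of the tested members of 28 gene lists called higher and called lower in transgenic cord at 6 months, with the share over all tested genes (5.68% in each direction) as a dashed line. The share called lower was 37.5% for vesicle genes, 33.3% for perineuronal net and endothelial genes, and the share called higher 29.2% for axon injury genes. Ganglion-linked members are counted, among them all 4 motor neuron genes called higher.

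Several myelin genes were lower. Oligodendrocytes wrap axons with membrane rich in a few proteins and lipids. Ugt8a, which makes the myelin lipid galactosylceramide, was at 230, 173, 248, 273 and 341 CPM in controls and 141, 156, 137 and 125 CPM in transgenic libraries (log2 fold change -0.86 ± 0.20 SE, adjusted p = 0.00606). The groups did not overlap, though control 2 was close to the transgenic libraries. Mobp, a myelin basic protein relative, was at 1940, 1540, 2559, 2014 and 1849 CPM and 1551, 1369, 978 and 1279 CPM (log2 fold change -0.61 ± 0.11 SE, adjusted p = 0.000893), and there control 2 fell below transgenic replicate 1. Of 26 tested genes 7 were lower (26.9%, beside 5.68% of all genes), none higher and 22 negative, with a median of -0.23. Without replicates 2 and 3 the number called lower was 2, where 2.16% of all genes were called lower. The summed level of the list was 19065 ± 1199 CPM (SD, n = 4) in transgenic and 24846 ± 1808 CPM (SD, n = 5) in control libraries (exact permutation test, two-sided, p = 0.00794, the smallest that the divisions of 9 libraries allow, and 0.0238 adjusted over 9 library measures). Enpp6, a marker of oligodendrocytes that have just differentiated, fell from 16, 14.1, 20.3, 19.3 and 27.9 CPM to 12.8, 12.1, 9.75 and 7.84 CPM (log2 fold change -0.88 ± 0.18 SE, adjusted p = 0.00231).

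Astrocyte genes were called in both directions. Slc1a2, the main glutamate transporter, was at 1629, 1401, 1816, 1606 and 1844 CPM in controls and 1372, 1137, 1044 and 1188 CPM in transgenic libraries (log2 fold change -0.48 ± 0.10 SE, adjusted p = 0.00199). S100b, a calcium-binding protein of astrocytes and oligodendrocytes, was at 951, 737, 868, 868 and 901 CPM and 642, 572, 600 and 574 CPM (log2 fold change -0.53 ± 0.09 SE, adjusted p = 0.000335). Both were lower without overlap. Gfap, the filament that reactive astrocytes build up, was at 1021, 988, 770, 1011 and 1324 CPM in controls and 1699, 1460, 1141 and 1367 CPM in transgenic libraries (log2 fold change 0.47 ± 0.11 SE, adjusted p = 0.00667). Control 5 exceeded transgenic replicate 3, and with GC and length offsets Gfap was not called (adjusted p = 0.0896). Of 20 general astrocyte genes 4 were higher (Gfap, Agt, Gjb6 and Slc1a3, the other main glutamate transporter) and 5 lower, with a median of -0.03, and the number called higher was 1 without transgenic replicate 4 or control 4 and 2 without transgenic replicate 2 or without both 2 and 3. Of 29 reactive astrocyte genes 6 were higher, 1 of them the ganglion-linked Cd44, and none lower (median 0.32). Among the 6 were Amigo2, an adhesion protein, at 16.5, 16.4, 17.7, 15.6 and 15.5 CPM and 23.7, 23, 25.5 and 25.8 CPM (log2 fold change 0.59 ± 0.07 SE, adjusted p = 3.35e-06), and H2-D1, a class I histocompatibility heavy chain, at 320, 334, 324, 294 and 269 CPM and 504, 426, 399 and 485 CPM (log2 fold change 0.56 ± 0.14 SE, adjusted p = 0.0105). Without replicates 2 and 3 the counts were 3 higher and 1 lower.

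Several genes of endothelium and of pericytes were lower. Ptprb, the endothelial phosphatase that restrains Tek signalling, was at 56.1, 58, 81.1, 87.3 and 88.1 CPM in controls and 44.2, 42.8, 42.5 and 36.1 CPM in transgenic libraries (log2 fold change -0.84 ± 0.13 SE, adjusted p = 8.28e-05). Pecam1, a junction protein of endothelium, was at 36.6, 29.9, 39.4, 39.5 and 40.2 CPM and 28.6, 26.1, 25 and 23.6 CPM (log2 fold change -0.52 ± 0.09 SE, adjusted p = 0.000491), and Ocln, occludin of the barrier, at 11, 10.4, 12.5, 14.2 and 14.9 CPM and 9.64, 9.46, 8.0 and 8.2 CPM (log2 fold change -0.52 ± 0.11 SE, adjusted p = 0.00406). The groups were apart for the 3 genes, with controls 1 and 2 closest to the transgenic libraries. Of 27 tested endothelial genes 9 were lower (33.3%, beside 5.68% of all genes), the others being Flt1, Kdr, Tek, Slco1c1, Abcb1a and Itm2a. None of the 27 was higher, and 22 were negative, with a median of -0.31. Their summed level was 1542 ± 87.5 CPM (SD, n = 4) against 1804 ± 88.7 CPM (SD, n = 5; exact permutation test, two-sided, p = 0.0159, adjusted 0.0286). Rgs5, the pericyte marker, was at 155, 145, 177, 236 and 201 CPM in controls and 118, 100, 95.1 and 98.8 CPM in transgenic libraries (log2 fold change -0.83 ± 0.12 SE, adjusted p = 3.52e-05). It was 1 of 4 genes called lower among 16 of pericytes and smooth muscle (median -0.19), a count that was 1 without transgenic replicate 4 and 2 without control 3.

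Several genes of lipid synthesis were lower. Cholesterol for myelin is made in the cord itself, through a chain of enzymes controlled by the SREBP transcription factors. Hmgcs1, which makes the HMG-CoA that enters the chain, was at 341, 314, 470, 439 and 513 CPM in controls and 327, 286, 295 and 235 CPM in transgenic libraries (log2 fold change -0.54 ± 0.13 SE, adjusted p = 0.00683). Sc5d, a late enzyme, was at 42.7, 52.5, 68.6, 69.4 and 67 CPM and 34.6, 34.2, 35.8 and 27.7 CPM (log2 fold change -0.86 ± 0.13 SE, adjusted p = 0.000113). The Sc5d groups did not overlap, whereas for Hmgcs1 control 2 was below transgenic replicate 1. Of 25 tested genes 8 were lower and none higher, with a median of -0.11; the others were Idi1, Cyp51, Msmo1, Hsd17b7, Insig1 and Stard4. The count was 3 without transgenic replicate 3, 4 without transgenic replicate 4, 5 without control 5 and 2 without replicates 2 and 3.

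A 9-letter form of the sterol regulatory element bound by SREBP, TCACCCCAC, was searched on both strands of the 250 bases before each start. It was found before 163 of 32851 starts (0.496%) and before 1 of the 18 cholesterol genes with a start in the table, Hmgcs1, which was also 1 of the 7 of these that were called lower. The window lies at chr13:119690101-119690350 on the plus strand of GRCm38.p6 (RefSeq), and the match, in capitals, starts 137 bases before the start of transcription.
Hmgcs1: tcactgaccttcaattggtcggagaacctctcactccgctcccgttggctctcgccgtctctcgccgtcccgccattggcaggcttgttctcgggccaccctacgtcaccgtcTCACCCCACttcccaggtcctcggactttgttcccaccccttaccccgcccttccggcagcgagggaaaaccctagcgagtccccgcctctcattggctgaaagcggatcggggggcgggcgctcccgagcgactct

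Genes of fatty acid synthesis were also among those called. Scd2, the desaturase of brain and cord, was at 2957, 2739, 3137, 3187 and 3334 CPM in controls and 2360, 2331, 2226 and 2118 CPM in transgenic libraries (log2 fold change -0.44 ± 0.06 SE, adjusted p = 3.52e-05), and Elovl2, which lengthens polyunsaturated chains, at 20.4, 17.8, 25.3, 20.3 and 21.5 CPM and 15.3, 12.7, 14.3 and 11.7 CPM (log2 fold change -0.64 ± 0.12 SE, adjusted p = 0.000656). The groups were apart for both genes. Of 19 tested genes 8 were lower (42.1%) and 1, Fads3, higher (5.26%), beside 5.68% of all genes in each direction. The median was -0.20. The number called lower was 2 without transgenic replicate 4 and 5 without control 5 or without both replicates 2 and 3.

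Transcripts of the mitochondrial genome took a smaller share of counts, 3.49% ± 0.242 (SD, n = 4) in transgenic and 4.43% ± 0.298 (SD, n = 5) in control libraries (exact permutation test, two-sided, p = 0.00794, adjusted 0.0238). mt-Nd2, a complex I subunit, was at 3814, 3377, 4236, 3951 and 4343 CPM in controls and 2580, 2654, 2606 and 1802 CPM in transgenic libraries (log2 fold change -0.71 ± 0.15 SE, adjusted p = 0.00312). mt-Co1, a complex IV subunit, was at 8963, 8807, 10504, 9580 and 11436 CPM and 6976, 7259, 6701 and 5828 CPM (log2 fold change -0.56 ± 0.13 SE, adjusted p = 0.00567). Replicate 4 was the lowest for both, and no transgenic library reached the controls. Of 13 such genes 5 were lower (38.5%, beside 5.68% of all genes) and none higher (median -0.30). The count was 3 without transgenic replicate 3 or 4, control 3 or 5, or both replicates 2 and 3. Of 35 nuclear genes of oxidative phosphorylation 6 were lower (17.1%) and none higher (median -0.04). Among the 6 was the complex I subunit gene Ndufs1 (log2 fold change -0.38 ± 0.08 SE). None of the 35 was called without replicates 2 and 3, and 3 without replicate 4.

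Microglia take up debris and, near damaged neurons, switch from a resting set of genes to the Trem2-dependent disease-associated set. At 6 months 3 of its best known genes were not called with all libraries. Trem2 was at 11.7, 11.8, 12.8, 11.9 and 19.8 CPM in controls and 22.6, 19.1, 14.3 and 19.1 CPM in transgenic libraries (log2 fold change 0.47 ± 0.17 SE, adjusted p = 0.0789). Itgax was at 0.347, 0.444, 1.02, 0.887 and 2.92 CPM and 2.66, 1.18, 1.02 and 1.29 CPM (log2 fold change 0.45 ± 0.41 SE, adjusted p = 0.498), and Cd68, a lysosomal protein of phagocytes, at 5.44, 6.58, 6.33, 6.3 and 10.9 CPM and 8.6, 9.33, 7.58 and 9.14 CPM (log2 fold change 0.29 ± 0.17 SE, adjusted p = 0.269). In each case control 5 was the highest control and lay within or above the range of the transgenic libraries. Without control 5 all 3 were called higher, at 0.64 for Trem2 (adjusted p = 0.0195), 1.17 for Itgax (0.0497) and 0.49 for Cd68 (0.0449). Of 30 tested genes of the disease-associated set 4 were higher (Lgals3, Csf1, Cd63 and Ctsl) and 2 lower (Spp1 and Ank), with a median of 0.14. Those were 13.3% and 6.67%, beside 5.68% of all genes in each direction. Without control 5 the list had 9 higher (3.44% of all genes were then called higher), and without transgenic replicate 1 or 4, or without both 2 and 3, it had 2. For 1.5 months the same list counted 20 higher, and for 10 to 12 months 14 higher and 3 lower, beside 1.76% and 8.24% of all genes called higher and 1.97% and 10.4% called lower at those ages.

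Whether the genotype effect at 6 months differed from that at 1.5 months was tested as an interaction in the same fit, in which 16 genes (0.0799%) were called with a higher and 15 (0.0749%) with a lower effect at 6 months. Microglial genes were among the latter. Itgax had a log2 fold change of 3.88 at 1.5 months and 0.45 at 6 months, a difference of -3.42 (adjusted p = 0.00576). Trem2 had 1.84 and 0.47, a difference of -1.38 (adjusted p = 0.00576). Cd68, Ccl4, Mpeg1 and Fcrls also had lower effects at 6 months, with differences of -1.37, -2.93, -1.77 and -2.02. Fcrls changed direction, from 1.12 at 1.5 months (adjusted p = 0.00122) to -0.90 at 6 months. Without control 5 the differences remained called, at -2.71 for Itgax and -1.21 for Trem2. Without both transgenic replicates 2 and 3 no gene was called in this contrast, whose counts ran from 3 higher and 7 lower without replicate 3 to 89 and 41 without replicate 1, and the differences were then -3.07 for Itgax (adjusted p = 0.157), -1.23 for Trem2 (0.157) and -2.25 for Fcrls (0.052). Against 10 to 12 months no microglial gene was called: the 1 gene called with a higher effect at 6 months (0.005%) was Avil, and none was called with a lower one (0.0%).

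**Figure D5:**
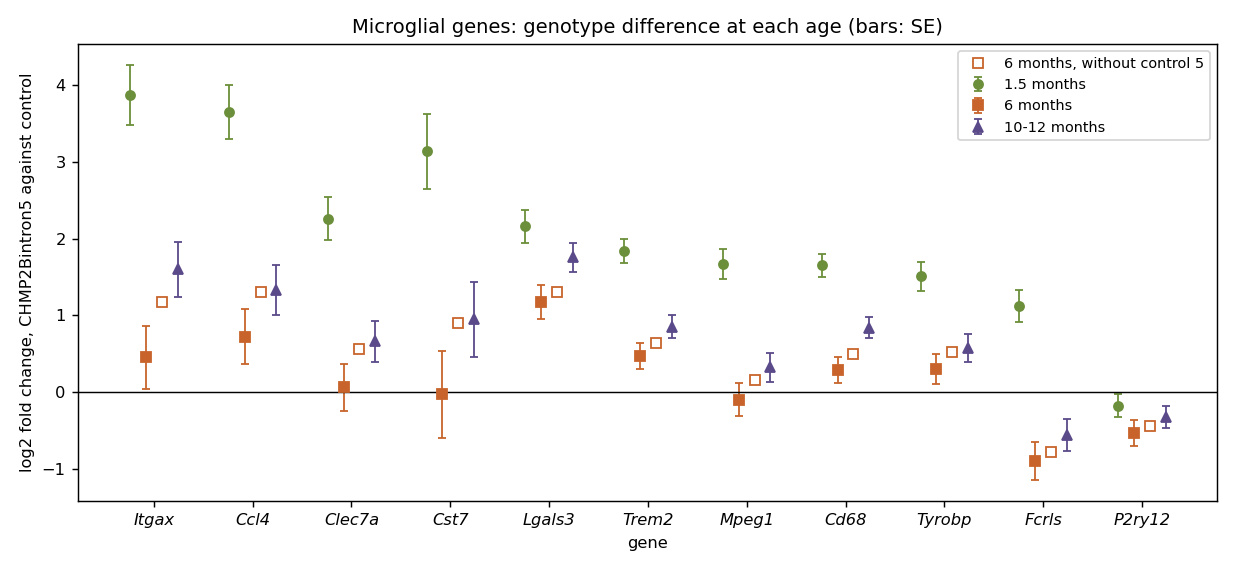
Log2 fold change (transgenic minus control, with SE bars) of 11 microglial genes at 1.5, 6 and 10 to 12 months, with open squares for 6 months without control replicate 5. Each of the 11 values at 6 months lies below those at both other ages, and each open square lies above the filled point of 6 months. Itgax, Ccl4, Trem2, Mpeg1, Cd68 and Fcrls were named for a lower effect at 6 than at 1.5 months, so that order follows from their selection. No gene was called with a lower effect at 6 than at 10 to 12 months. Other members of the microglial lists are not shown.

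Fcrls, a resting microglia receptor, was lower at 6 months, with 3.18, 3.89, 3.07, 3.36 and 4.7 CPM in controls and 1.7, 2.46, 2.06 and 1.64 CPM in transgenic libraries (log2 fold change -0.90 ± 0.25 SE, adjusted p = 0.0191). P2ry12, the purine receptor that guides microglial processes, was at 15, 12.1, 21.1, 21.3 and 22.5 CPM and 14.3, 14.3, 12.3 and 9.84 CPM (log2 fold change -0.54 ± 0.17 SE, adjusted p = 0.038). With Siglech they were the 3 called lower of 16 resting microglia genes (18.8%, beside 5.68% of all genes). None was called lower without transgenic replicate 4 or without control 5, and 1 without transgenic replicate 3 or control 3 or 4. The summed level of that list was 402 ± 31.5 CPM (SD, n = 4) against 429 ± 57.4 CPM (SD, n = 5; exact permutation test, two-sided, p = 0.492).

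Lysosomal and quality control genes moved in small numbers. Grn, progranulin, whose loss causes frontotemporal dementia, was at 58.8, 55.5, 51.2, 54.4 and 66.7 CPM in controls and 74.8, 80, 81 and 79.4 CPM in transgenic libraries (log2 fold change 0.46 ± 0.11 SE, adjusted p = 0.00829). Sort1, the receptor that carries progranulin to the lysosome, moved the other way, from 401, 383, 403, 392 and 466 CPM to 326, 310, 306 and 275 CPM (log2 fold change -0.43 ± 0.09 SE, adjusted p = 0.00256). Neither showed overlap. Of 40 lysosomal genes 5 were higher (12.5%) and 2 lower (5.0%), beside 5.68% of all genes in each direction, with a median of 0.12. Without replicates 2 and 3 there were 1 and 0. The higher were 3 without transgenic replicate 3 or 4 or control 3, and the lower at most 1 in each of the 9 fits without 1 library. Of 31 endosome and retromer genes none was higher and 4 were lower (12.9%, median -0.14), a count that was 1 without transgenic replicate 4 or control 5 or without both 2 and 3, and 2 without transgenic replicate 2 or 3. Sqstm1, the p62 adaptor that gathers ubiquitinated cargo for autophagy, was at 561, 586, 501, 480 and 479 CPM and 597, 637, 642 and 638 CPM (log2 fold change 0.27 ± 0.09 SE, adjusted p = 0.0398), without overlap, though the call was lost without transgenic replicate 2, 3 or 4 or control 3, 4 or 5. It was 1 of 3 higher genes (10.7%) among 28 of autophagy (median -0.01), of which none was called without transgenic replicate 4 and 1 without control 3, 4 or 5 or without both replicates 2 and 3.

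Chaperone genes were called in both directions. Hspb8, which with Bag3 directs misfolded protein to autophagy in motor neurons and muscle, was at 59.7, 56.2, 51.7, 59.6 and 68.7 CPM in controls and 76.9, 109, 115 and 75.8 CPM in transgenic libraries (log2 fold change 0.67 ± 0.10 SE, adjusted p = 8.28e-05). The ganglion-bearing replicates 2 and 3 were the highest, and replicates 1 and 4 were also above every control. Hspb1 and Bag3 were higher too, while Hspa4, Hspa4l, Hspa8 and Stip1 were lower, which made 3 higher and 4 lower of 23. The number called lower was 0 without transgenic replicate 4 and 2 without control 5, and without replicates 2 and 3 there were 1 higher and 2 lower. None of 24 proteasome and ubiquitin genes was called, and of 30 genes linked to amyotrophic lateral sclerosis or frontotemporal dementia 2 were higher (6.67%; Grn and Sqstm1) and 3 lower (10.0%; Kif5a, Tuba4a and Vapb), with 1 lower without transgenic replicate 4 and 1 higher without transgenic replicate 2, 3 or 4 or control 3 or 4.

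Most of the 6-month changes were also called at the oldest age. Of the 1028 higher genes, 104 (10.1%) were higher at 1.5 months and 653 (63.5%) at 10 to 12 months, and of the 1135 lower genes 260 (22.9%) and 870 (76.7%) were lower. As shares of the other lists, these made up 29.5% of the 352 genes higher and 66.0% of the 394 genes lower at 1.5 months, and 39.6% of the 1650 higher and 41.9% of the 2075 lower at 10 to 12 months. The ages share no libraries, but all enter the same fit. Of the 20015 tested genes, 12 had all 15 transgenic libraries of the 3 ages above all 17 controls, and 80 had them below. Of these, 12 and 78 were called at 6 months. The 9 libraries of that age are among those so separated, so these calls were largely fixed in advance.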

How the data were processed

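RNA-seq of 32 mouse spinal cord samples was deposited as 1 table of read counts per gene, which the authors made from stranded libraries (TruSeq Stranded mRNA from 500 ng of Trizol and RNeasy RNA, per the labels' protocols). The submitters' processing notes name bcl2fastq 2.17.1.14, TopHat2 2.0.14, Bowtie2 2.1.0, HTSeq 0.6.1 and mm10; the sources used here give neither the annotation nor the strand option used for counting. Counts of 45706 genes were fitted in edgeR 4.0.16 (R 4.3.3; TMM factors, filterByExpr with a minimum count of 10 and total of 15, quasi-likelihood test, Benjamini-Hochberg adjustment over 20015 genes, called under 0.05) with 1 term per genotype and age over all 32 libraries. Alternatives were DESeq2 1.42.0, RLE factors, no filter, the 9 libraries alone, each library left out, transgenic replicates 2 and 3 left out, a replicate block, and offsets for GC content and length (GENCODE M21). Offsets together with replicates 2 and 3 left out were chosen after seeing the data. Genes were named by rule: Chmp2b, Thy1, Chrna2, the 14 largest changes per direction and up to 4 called members per list with the smallest adjusted p, ESCRT and ganglion-linked genes, and the 6 smallest adjusted p of each interaction. Other called members are listed without values, and Cacna1d, Pirt and Slc17a7 were named after their values were seen. Members and lists were chosen with earlier results of these data known. Scripts were tested on simulated data.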

Additional observations from a re-analysis of the deposited data

Results flagged for a closer look

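In groups of 4 or 5 libraries, a single library can lie far from the rest. Of 252 groups looked at, 17 had a library whose gap to its nearest neighbour was a large part of the group's range (past Dixon's 95% critical value), where chance gives about 1 in 20 groups. Control 5 accounted for 9 of the 17. It was the highest control for Thy1 (1124 CPM against 658 to 740 in the other 4) and Sort1 (466 against 383 to 403), the lowest for Acan (17.4 against 20.6 to 21.5), and the highest for the microglial genes Itgax (2.92), Trem2 (19.8), Clec7a (6.6), Cst7 (1.55), Ccl4 (1.09) and Cd68 (10.9 against 5.44 to 6.58). Control 2 was the highest for the ganglion marker Avil (1.29 CPM) and the lowest for mt-Nd1 (6715 CPM). Transgenic replicate 4 was the lowest for Atp2b1 (63.9 CPM), mt-Nd2 (1802 CPM) and Usp8 (83.4 CPM). Transgenic replicate 1 was the highest for Itgax (2.66 CPM) and the lowest for Sqstm1 (597 CPM), and transgenic replicate 2 the lowest for Scn8a (296 CPM).

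The genotype effect differed between ages in an interaction test. At 6 months minus 1.5 months the difference in log2 fold change was 0.46 for Chfr, a mitotic checkpoint ubiquitin ligase (adjusted p = 0.00576), 1.72 for Vill, a villin relative (0.00576), and 0.55 for Dzip1l, a ciliary protein (0.0162). Without transgenic replicates 2 and 3 none of the 3 was called, with differences of 0.51 (adjusted p = 0.052), 1.52 (0.107) and 0.59 (0.107). The ganglion-linked genes Trpv1 (4.18, adjusted p = 0.0132), Trarg1 (4.95, 0.0155), Acpp (4.74, 0.0192) and Avil (5.20, 0.0335) had larger effects at 6 months, and Avil also differed from 10 to 12 months (6.33, 0.0309). Lower effects at 6 than at 1.5 months were called for Fcrls (-2.02), Cd68 (-1.37), Trem2 (-1.38), Ccl4 (-2.93), Itgax (-3.42) and Mpeg1 (-1.77), each with an adjusted p of 0.00576 by edgeR's quasi-likelihood test.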

How the results depend on the processing

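The counts of 1137 higher and 1137 lower genes at 6 months ran from 530 to 1397 and from 409 to 1284 when 1 library was left out. They were 743 higher with only the 9 libraries, 454 higher and 445 lower without transgenic replicates 2 and 3, and 1760 higher with GC and length offsets. Same-numbered libraries of the 2 groups did not deviate together (r between -0.325 and -0.0232, none best with its own number), so the numbers were not taken as pairs; with a replicate block 2 genes were higher and 6 lower. For 6 minus 1.5 months, 16 higher and 15 lower became 75 and 51 with DESeq2, 10 higher without the filter on low counts, 36 and 43 with GC and length offsets, 0 and 0 without replicates 2 and 3, and 0 and 5 with both changes; leaving out 1 library gave 3 to 89 and 7 to 41. Against 10 to 12 months, 1 higher and 0 lower became 18 and 1 with DESeq2, 4 higher without the filter, 4 with offsets, 0 without replicates 2 and 3 and 0 with both changes, and 0 to 39 higher and 0 lower with 1 library left out; the causes were not tested. At a ratio of 2, 157 genes were ganglion-linked in place of 373. Every gene followed singly kept its direction and call with DESeq2 and with RLE factors; with offsets 3 lost and 1 gained a call, and without replicates 2 and 3 21 lost it. Signs reversed without replicates 2 and 3 for Fstl1 (-0.37) and Acpp (-0.47), and with offsets as well for Sncg (-0.24), Fstl1 (-0.33), Trarg1 (-0.03), Acpp (-0.34) and Avil (-0.02); each is ganglion-linked, and the libraries that defined the set are those left out. With 1 library left out, differences in the mitochondrial share lay between -1.02 and -0.836 percentage points and in summed myelin CPM between -6330 and -5126. Two-sided exact permutation tests of 4 against 5 libraries cannot go below p = 0.00794.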

Other observations

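In several gene groups outside the comparisons above most fold changes had 1 sign, though few members were called. Of 13 tested HOX genes of the cord, 11 had positive and 2 negative fold changes, and 3 were called higher (23.1%, beside 5.68% of all genes): Hoxa5 at 18.4, 18.6, 17.6, 18.7 and 17.1 CPM in controls and 24.3, 22.5, 19.3 and 25.3 CPM in transgenic libraries, Hoxb7 and Hoxc6. Hoxb7 was not called without transgenic replicate 4. All 30 cytosolic ribosomal protein genes had positive fold changes, with a median of 0.27, and 1, Rpl32, was called, a call lost without any 1 of the transgenic libraries or of controls 3, 4 and 5. With DESeq2 and RLE factors the median of all genes was 0.00, beside 0.02 with TMM factors. Of 17 genes of MHC class I presentation 16 were positive (median 0.41), with H2-D1 and Tapbp called higher (11.8%). The number was 1 without transgenic replicate 2, 3 or 4 or control 4 or 5. Of 15 ependymal genes 11 were positive (median 0.21), with Cfap44 and Tekt1 called higher (13.3%).

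Among the largest rises that met the rule for naming, 2 genes have known roles in cilia or in cerebrospinal fluid. Sspo, the subcommissural organ protein that forms Reissner's fibre, was at 5.32, 4.98, 4.65, 3.9 and 2.97 CPM in controls and 7.15, 10.8, 9.48 and 11.3 CPM in transgenic libraries (log2 fold change 1.15 ± 0.24 SE, adjusted p = 0.00244 by edgeR's quasi-likelihood test). Ttll3, which glycylates the tubulin of cilia, was at 16.4, 17.4, 14.7, 12.4 and 13 CPM and 33.4, 26.9, 26.9 and 37 CPM (log2 fold change 1.07 ± 0.22 SE, adjusted p = 0.00244). The groups did not overlap for either gene, which the rule for naming required. The share of genes called in either direction ran from 9.6% on chromosome 5 to 13.4% on the X chromosome, beside 11.4% over all.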
